A study of Mus musculus with 8 samples.

Results

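The inner hair cells (IHCs) of the cochlea turn sound into signals of the auditory nerve, and they do so at ribbon synapses. A ribbon synapse is a presynaptic release site where a protein body, the ribbon, holds synaptic vesicles next to L-type calcium channels. The channels open as the cell depolarizes, calcium enters, and glutamate is released onto the fibers of spiral ganglion neurons (SGNs). Loss of otoferlin, the calcium sensor of this release, is a known cause of auditory neuropathy, in which outer hair cells work but the nerve is not driven.

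The levels of 10 IHC ribbon synapse genes were examined in the RNA of whole cochleae. The genes were chosen by name, as presynaptic genes of the IHC, and not by their values. Earlier results of these data were known when they were chosen. They are *Otof*, *Slc17a8*, *Cacna1d*, *Cacnb2*, *Cabp2*, *Ctbp2*, *Bsn*, *Pclo*, *Rims2* and *Tbx2*, 10 of the 47628 named entries of the count tables. *Tbx2* encodes a transcription factor that maintains the identity of IHCs and is no synaptic protein. It is expressed in many cell types, so its level in the whole cochlea does not stand for IHCs alone.

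RNA seq was performed on untreated cochleae of 4 WT mice and 4 *Opa1*+/- littermates at postnatal day 21. The *Opa1*+/- mice carried, in 1 copy of the gene, the recurrent human *OPA1* delTTAG deletion placed there by knock-in, so that every cell of the animal was heterozygous. The genetic background of both groups mixed 129 Sv/Pas with C57BL/6 J. Mice are called here by the animal numbers of their labels, which are 4, 5, 6 and 8 in WT and 2 and 7 in *Opa1*+/-, where the other two, with 3-digit numbers, are called A and B in the order of those numbers. The study used both sexes, and the labels of these samples give neither sex nor litter. By the study's listing of animals, both cochleae of each mouse were used.

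Library depth ranged from 15978051 to 20828030 counts on named genes, of which 4438 to 6233 fell on the 10 ribbon synapse genes. The genotype labels were checked with *Opa1*. It had 118.7, 125.9, 111.7 and 122.4 CPM (counts scaled to library size) in WT mice 4, 5, 6 and 8, and 63.5, 68.4, 60.4 and 70.0 CPM in *Opa1*+/- mice 2, 7, A and B. Its log2 fold change, *Opa1*+/- over WT here and throughout, was -0.87, with an adjusted p of 0.00515 in edgeR's quasi-likelihood test. Of 19366 genes tested, 5 passed an adjusted p of 0.05, which is 0.0258%. The cochlea also holds hair cells, SGNs, glia, mesenchyme, blood and bone marrow. In such bulk samples fewer IHCs and less RNA per IHC cannot be told apart.

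One of the 10 genes makes a pair of proteins, and the counts do not separate them. *Ctbp2*, on the minus strand of chromosome 7 from 132987563 to 133124354 (GRCm38, GENCODE vM21), encodes RIBEYE, the main protein of the ribbon, and CtBP2, a transcriptional corepressor found in many cell types. The RIBEYE transcript, Ctbp2-214, starts at 133015248, which is 108119 bases downstream of the start of the CtBP2 transcript Ctbp2-201 at 133123367. The start of each coding sequence is shown because the proteins differ only there, with the start codon in capitals and the bases read 5′ to 3′ on the gene's strand.

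RIBEYE: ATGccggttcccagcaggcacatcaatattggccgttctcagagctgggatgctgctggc
CtBP2: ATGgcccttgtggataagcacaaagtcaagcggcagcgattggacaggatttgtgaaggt

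RIBEYE has 988 codons and CtBP2 has 445. They share 1277 coding bases, with 1687 bases of RIBEYE's own and 58 of CtBP2's own. The sequence around the point where both join is given with each transcript's own bases in lower case and the shared bases in capitals.

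RIBEYE junction: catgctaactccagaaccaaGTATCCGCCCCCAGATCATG
CtBP2 junction: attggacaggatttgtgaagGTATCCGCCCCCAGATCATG

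A read within the capitals and beyond could come from either. The *Ctbp2* values below are sums over both products, and the ribbon's own share of them was not measured.

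All 10 ribbon synapse genes had enough counts to be tested, from 77 counts for *Slc17a8* in WT mouse 4 to 1397 for *Pclo* in WT mouse 5. None passed an adjusted p of 0.05, against the 0.0258% of all genes tested. At an unadjusted p of 0.05 the count was also 0 of 10, in edgeR and in DESeq2 (which called 0 of 10 after adjustment as well), and 6.72% of all genes tested pass that level in edgeR. The 4 WT and 4 *Opa1*+/- values overlapped for each of the 10 genes, whereas they do not overlap for 4.31% of all genes tested. For 9 of the 10 genes the log2 fold change was below 0, which holds for 49.9% of all genes. Their median log2 fold change was -0.07, compared with 3.95e-04 over all genes tested.

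The intervals set out how large a difference these data leave room for. The 95% interval of the log2 fold change lay between -1 and 1 for all 10 genes, as it does for 89.8% of all genes tested. Its half-width went from 0.20 for *Cacnb2* to 0.52 for *Cabp2*. The lower ends of all 10 intervals, the lowest being -0.60, lay above the fitted log2 fold change of *Opa1*, -0.87. In whole-cochlea RNA, a difference of the size of that of *Opa1* was therefore outside the interval of each ribbon synapse gene. Most of these genes are also expressed by other cells of the cochlea. Levels within IHCs were not measured, and the intervals do not bound a change there. Differences within each gene's own interval could not be resolved with 4 mice per group.

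**Figure D1:**
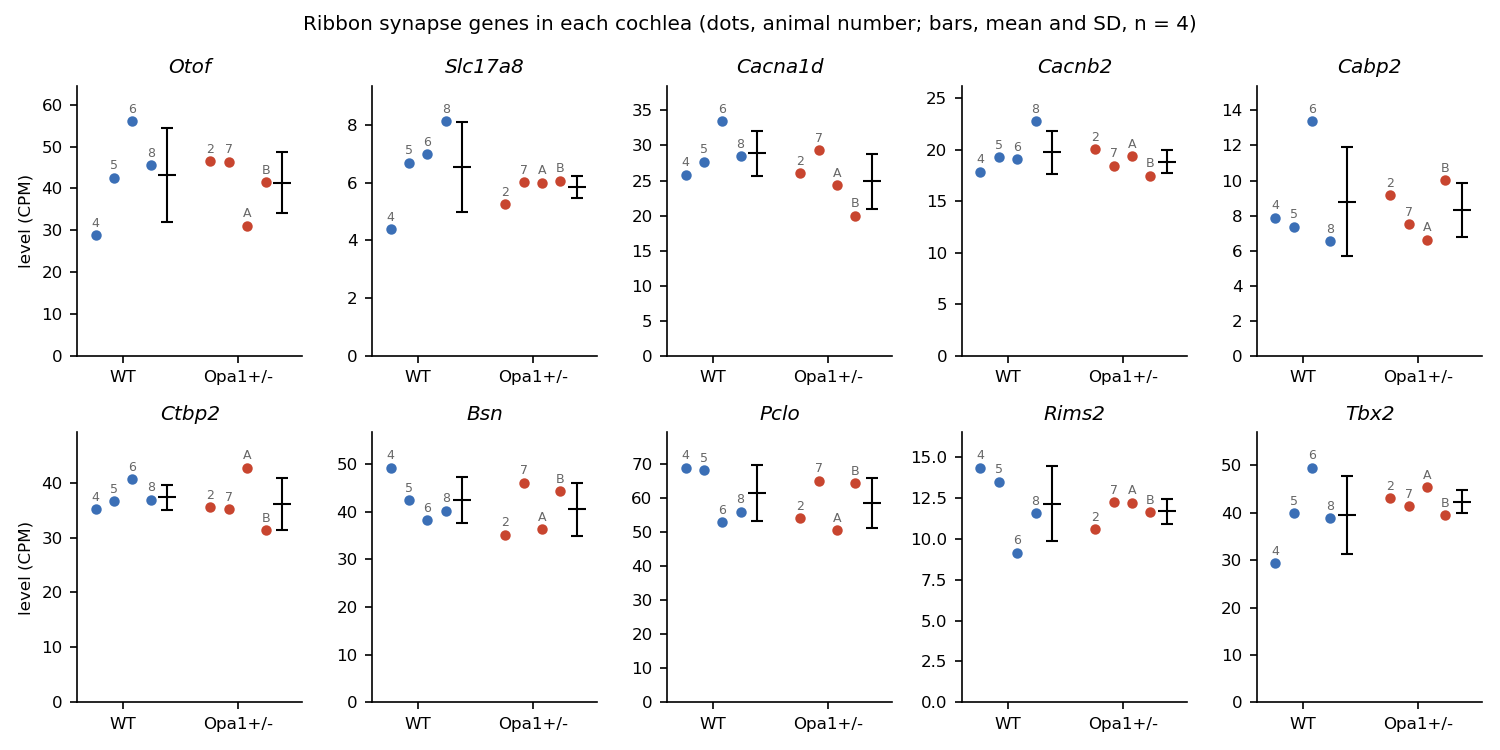
Level of each of the 10 ribbon synapse genes (y axis, CPM from 0) in 4 WT (blue) and 4 Opa1+/- (red) cochleae, each dot labelled with the animal number and each bar giving the mean and SD. The dots of the genotypes overlap in every panel, and the WT dots of Otof lie between 28.8 CPM in mouse 4 and 56.0 CPM in mouse 6.

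The first pair of genes serves the vesicle. *Otof*, on chromosome 5 from 30367062 to 30461932, encodes otoferlin, which senses calcium for vesicle fusion and for the refilling of release sites. It had 28.8, 42.5, 56.0 and 45.6 CPM in WT mice 4, 5, 6 and 8, and 46.5, 46.4, 31.1 and 41.4 CPM in *Opa1*+/- mice 2, 7, A and B. WT mice 4 and 6 were at the opposite ends, and 3 of the 4 *Opa1*+/- mice lay between 41.4 and 46.5 CPM. The means were 43.2 ± 11.2 CPM in WT and 41.3 ± 7.25 CPM in *Opa1*+/- (SD, n = 4 each). The log2 fold change was -0.06 (SE 0.19), with a 95% interval from -0.50 to 0.37, or from 29.1% lower to 29.2% higher, and the adjusted p was 0.960.

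*Slc17a8*, on chromosome 10 from 89574020 to 89621253, encodes the vesicular glutamate transporter that fills IHC vesicles. Its levels were 4.39, 6.69, 6.99 and 8.13 CPM in WT mice 4, 5, 6 and 8, and 5.26, 6.02, 6.003 and 6.06 CPM in *Opa1*+/- mice 2, 7, A and B. All *Opa1*+/- values fell inside the WT range, whose ends were again set by mouse 4 and, here, by mouse 8. This gave a log2 fold change of -0.17 (SE 0.18; 95% interval from -0.57 to 0.23), with an adjusted p of 0.875. *Slc17a8* had the fewest counts of the 10 genes, between 77 and 166 per mouse. Counting alone gave a coefficient of variation of 9.64%, against 23.9% among WT and 6.57% among *Opa1*+/- mice.

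The next genes build and regulate the calcium channel. *Cacna1d*, on chromosome 14 from 30039939 to 30491455, encodes the pore of the L-type channel that opens at IHC synapses and is also made by neurons. It had 25.9, 27.7, 33.5 and 28.5 CPM in WT mice 4, 5, 6 and 8, and 26.0, 29.4, 24.3 and 19.98 CPM in *Opa1*+/- mice 2, 7, A and B. Mouse B was the lowest of all and mouse A was next, while mice 2 and 7 lay within the WT range. This was the gene with the lowest p of the 10, an unadjusted edgeR p of 0.115, and the adjusted p was 0.767. The means were 28.9 ± 3.25 and 24.9 ± 3.91 CPM (SD, n = 4 each), and the log2 fold change was -0.21 (SE 0.12), with an interval from -0.48 to 0.06. That runs from 28.4% lower to 4.38% higher. Without *Opa1*+/- mouse B the log2 fold change was -0.12, without both A and B it was -0.06, and leaving out *Opa1*+/- mouse 7 moved it to -0.30.

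*Cacnb2*, on chromosome 2 from 14603088 to 14987908, encodes a beta subunit that brings the channel to the membrane. Its values were 17.9, 19.3, 19.1 and 22.8 CPM in WT mice 4, 5, 6 and 8, and 20.04, 18.4, 19.4 and 17.5 CPM in *Opa1*+/- mice 2, 7, A and B. It was the least variable of the 10 genes, with a 1.30-fold range over the 8 mice. The log2 fold change of -0.07 (SE 0.09) had an interval from -0.27 to 0.13, and the adjusted p was 0.905.

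*Cabp2*, on chromosome 19 from 4081578 to 4087340, encodes a calcium-binding protein that keeps the IHC channel from inactivating. It had 7.88, 7.37, 13.4 and 6.56 CPM in WT mice 4, 5, 6 and 8, and 9.16, 7.52, 6.62 and 10.02 CPM in *Opa1*+/- mice 2, 7, A and B. WT mouse 6 stood above all others, and the WT range enclosed every *Opa1*+/- value. *Cabp2* was the most variable of the 10, with a 2.04-fold range and a coefficient of variation of 35.3% in WT, where counting accounts for 8.23%. Its log2 fold change was -0.08 (SE 0.23; 95% interval from -0.60 to 0.45), and its adjusted p was 0.960. Without WT mouse 6 it was 0.20.

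Next come the genes of the ribbon and the active zone. The summed products of *Ctbp2* gave 35.2, 36.7, 40.6 and 36.9 CPM in WT mice 4, 5, 6 and 8, and 35.5, 35.1, 42.7 and 31.3 CPM in *Opa1*+/- mice 2, 7, A and B. The highest and the lowest value both belonged to *Opa1*+/- mice, A and B. A log2 fold change of -0.05 (SE 0.09) was fitted, with an interval from -0.25 to 0.16 and an adjusted p of 0.942.

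*Bsn*, on chromosome 9 from 108096022 to 108190384, encodes bassoon, which anchors the ribbon to the membrane and is also present at conventional synapses. Its levels were 49.3, 42.4, 38.2 and 40.2 CPM in WT mice 4, 5, 6 and 8, and 35.2, 46.1, 36.4 and 44.3 CPM in *Opa1*+/- mice 2, 7, A and B. Here WT mouse 4, low for *Otof*, was the highest of the 8. *Bsn* had a log2 fold change of -0.07 (SE 0.11; 95% interval from -0.32 to 0.18) and an adjusted p of 0.920.

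*Pclo*, on chromosome 5 from 14514918 to 14863459, encodes piccolo, a relative of bassoon, of which a short form is found at ribbons. It had 68.9, 68.2, 52.8 and 56.0 CPM in WT mice 4, 5, 6 and 8, and 54.1, 65.1, 50.6 and 64.3 CPM in *Opa1*+/- mice 2, 7, A and B. Each group held a pair of higher and a pair of lower mice, with a gap between them. Its log2 fold change was -0.07 (SE 0.11), the interval ran from -0.33 to 0.19, and the adjusted p was 0.923.

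*Rims2*, on chromosome 15 from 39198261 to 39684372, encodes a scaffold that gathers calcium channels at release sites. Values were 14.3, 13.5, 9.14 and 11.6 CPM in WT mice 4, 5, 6 and 8, and 10.6, 12.2, 12.2 and 11.6 CPM in *Opa1*+/- mice 2, 7, A and B. WT mice 4 and 6 again took the extremes, in the order opposite to that of *Otof*. With these values the log2 fold change was -0.06 (SE 0.14; 95% interval from -0.37 to 0.25), and the adjusted p was 0.950.

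*Tbx2*, on chromosome 11 from 85832551 to 85841948, was the only one of the 10 with a log2 fold change above 0. Its level was 29.5, 40.0, 49.5 and 38.9 CPM in WT mice 4, 5, 6 and 8, and 43.1, 41.4, 45.4 and 39.6 CPM in *Opa1*+/- mice 2, 7, A and B. The *Opa1*+/- mice were close together, with a coefficient of variation of 5.90% against 20.8% in WT, and sat inside the WT range. For *Tbx2* the log2 fold change was 0.10 (SE 0.13), with an interval from -0.20 to 0.40 and an adjusted p of 0.905. Without WT mouse 4 it was -0.01.

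Summed over the 10 genes, the level was 281.8, 304.3, 319.2 and 295.2 CPM in WT mice 4, 5, 6 and 8, and 285.5, 307.6, 274.7 and 286.1 CPM in *Opa1*+/- mice 2, 7, A and B. Most of the sum came from *Pclo*, *Bsn*, *Otof* and *Tbx2*. *Otof*, *Slc17a8* and *Cabp2*, which background knowledge places mainly in IHCs within the cochlea, summed to 58.6 ± 14.5 CPM in WT and 55.5 ± 8.01 CPM in *Opa1*+/- (SD, n = 4 each). *Cacna1d*, *Cacnb2*, *Bsn*, *Pclo* and *Rims2*, which neurons also express, summed to 164.8 ± 10.8 and 154.4 ± 12.9 CPM. In both sums the difference of the means was smaller than the larger SD. *Ctbp2* and *Tbx2*, expressed in many cell types, were in neither sum.

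Some counts may include reads of neighboring genes, since it is not stated whether strand was used in counting. *Cacna1d* shares 589 exon bases, 4.67% of its exons, with *Chdh* on the opposite strand. *Ctbp2* shares 314 exon bases, 5.05%, with *Fgfr2* on the same strand. *Cacnb2* and *Pclo* overlap antisense or pseudogene entries, the longest overlap being 4.67% for *Cacnb2*, and *Bsn* shares 57 bases with a microRNA entry. No exon of another gene overlapped those of *Otof*, *Slc17a8*, *Cabp2*, *Rims2* or *Tbx2*.

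**Figure D2:**
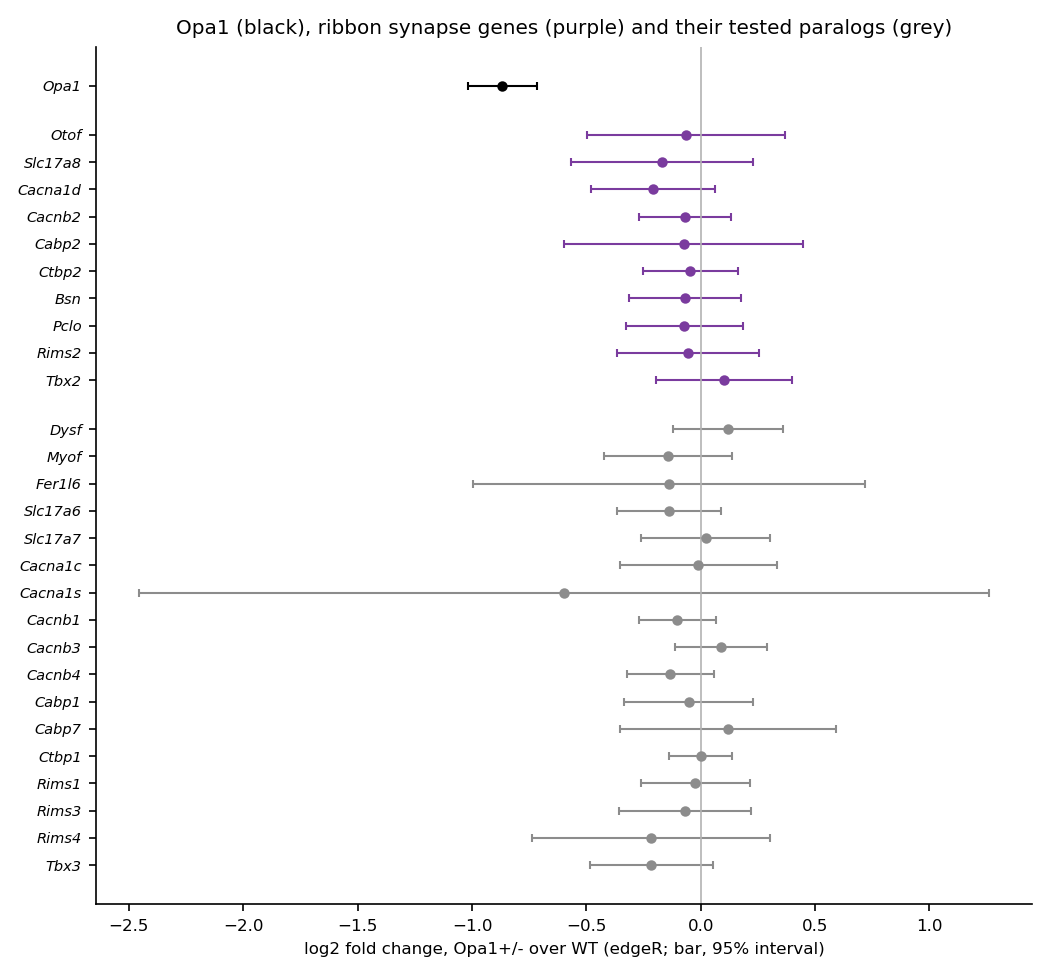
Log2 fold change, Opa1+/- over WT (x axis, edgeR, with 95% interval), of Opa1 (black), the 10 ribbon synapse genes (purple) and their 17 tested paralogs (grey). The intervals of all 10 ribbon synapse genes cross 0, and Opa1 lies apart at -0.87.

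The fold changes were read against the spread among mice of 1 genotype. This spread within groups, as an SD on the log2 scale, went from 0.12 for *Cacnb2* to 0.37 for *Cabp2*, beside a median of 0.17 over all genes tested. For *Cacna1d* it was 0.20, with a log2 fold change of -0.21, and for the other 9 genes it was larger than the size of the log2 fold change. *Cabp2* and *Otof* were among the more variable genes of the whole table, above 83.2% and 80.5% of the genes tested. *Cacnb2* was above only 31.8% of them. Counting noise, between 3.08% for *Pclo* and 9.64% for *Slc17a8*, was below the variation among WT mice for all 10 genes.

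For *Otof*, *Rims2* and *Tbx2* the highest and the lowest of the 8 mice were WT mice 4 and 6. WT mouse 4 was 0.52 below the mean of the 8 mice for *Otof*, 0.46 below for *Slc17a8* and 0.46 below for *Tbx2* on the log2 scale, while it was 0.25 above for *Bsn*, 0.21 for *Pclo* and 0.28 for *Rims2*. WT mouse 6 went the other way, 0.43 above the mean for *Otof*, 0.68 for *Cabp2* and 0.29 for *Tbx2*. In that mouse *Rims2* was 0.36 below the mean. Other genes had other extremes, with *Cacnb2* highest in WT mouse 8 (0.24 above) and lowest in *Opa1*+/- mouse B (0.14 below), *Ctbp2* in *Opa1*+/- mice A and B (0.22 above and 0.22 below), and *Cacna1d* lowest in mouse B (0.41 below). The CPM of *Otof* was 2.01 times that of *Rims2* in WT mouse 4 and 6.13 times in WT mouse 6, with 2.55 to 4.40 times in the *Opa1*+/- mice.

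Some other cell markers also had their extremes in WT mice 4 and 6, and others did not. The summed level of 15 genes used by inner and outer hair cells was lowest in WT mouse 4, at 246.1 CPM, and highest in WT mouse 6, at 396.5 CPM. Without *Xirp2*, which skeletal muscle also expresses and which reached 82.1 CPM in WT mouse 6, these mice remained at the ends, with 227.9 and 314.4 CPM. The summed level of 7 neutrophil and marrow genes was 1304 CPM in WT mouse 4 and between 398.1 and 486.4 CPM in the other WT mice, and 6 erythroid genes summed to 21394 CPM there against 7733 to 12279.8 CPM. *Opa1*+/- mouse B was also high in both, at 1063 CPM for the neutrophil and marrow genes and 25010.5 CPM for the erythroid genes. The 7 outer hair cell genes summed lowest in *Opa1*+/- mouse 2, at 62.0 CPM, and highest in mouse B, at 95.1 CPM. The 16 SGN genes summed lowest in WT mouse 5, at 6533 CPM, and highest in *Opa1*+/- mouse B, at 7796.5 CPM. With WT mice 4 and 6 both left out, a choice made after seeing the data, the median log2 fold change of the 10 genes was -0.09 and none passed the test. The part of these cell markers in the spread of the ribbon synapse genes was not tested.

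**Figure D3:**
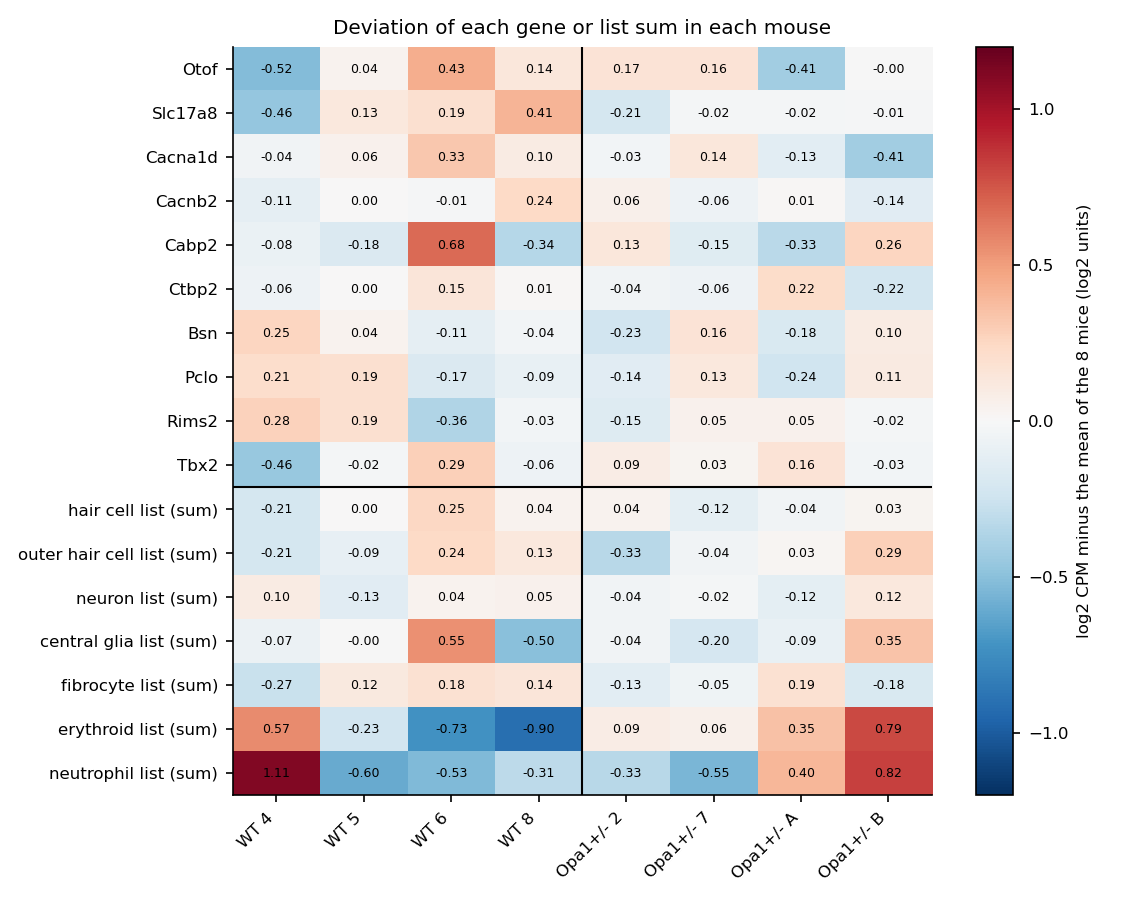
Deviation of each of the 10 ribbon synapse genes, and of the summed CPM of 7 marker lists, from the mean of the 8 mice (color and printed value, log2 units), with one column per mouse. WT mouse 4 is low and WT mouse 6 high for Otof (-0.52 and 0.43) and for the hair cell list, here without Xirp2 (-0.21 and 0.25), and Rims2 runs the other way (0.28 and -0.36).

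To see which genes kept pace with *Otof* from mouse to mouse, the log2 CPM deviations from the group means were compared over the 8 mice. The likeness is a Pearson r, given as a description, since all 8 points share their library with every gene. With only 8 points and 19365 genes searched, high values of r can also arise by chance. The highest of 19365 genes were *Fam168b* (r = 0.985), *Sirt5* (r = 0.983), *Tmem220*, *Med13l*, *Fam171a1*, *Bloc1s4*, *Rbm24*, *Rab28*, *Ltbp2* and *D330023K18Rik* (r = 0.954). *Rbm24* encodes an RNA-binding protein known in hair cells and muscle, and none of the 10 is in a marker list used here. Of the other ribbon synapse genes, *Tbx2* had an r of 0.69, *Slc17a8* 0.62, *Cacna1d* 0.57, *Cabp2* 0.54 and *Cacnb2* 0.30. *Ctbp2* was near 0, at -0.06, and *Pclo*, *Bsn* and *Rims2* had negative values of -0.26, -0.35 and -0.78. The 15 hair cell genes listed were spread from -0.45 for *Lhfpl5*, of the transduction machinery, to 0.91 for *Loxhd1*, needed for hair cell function, with 0.25 for the motor protein gene *Myo7a* and 0.77 for *Pou4f3*, a hair cell transcription factor. The 7 outer hair cell genes went from -0.23 for *Ocm* to 0.86 for *Chrna10*, an acetylcholine receptor subunit, and the 16 SGN genes from -0.60 for *Stmn2*, of growing axons, to 0.65 for *Syt2*, a calcium sensor of nerve terminals. These 8 genes were named after their values were seen.

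Levels between genes were compared per length, as RPKM (CPM divided by the kilobases of joined exons). *Tbx2* was highest, with a mean of 11.3 RPKM over the 8 mice, and it was above *Cabp2*, the next, in 8 of 8 mice. *Cabp2* at 6.34, *Ctbp2* at 5.91 and *Otof* at 5.35 RPKM could not be put in order, each being above the next in only 4 of 8 mice. *Otof* was above *Pclo* in all 8, with ranges that did not overlap. *Pclo* at 2.67 and *Bsn* at 2.61 RPKM were again even, each higher in 4 mice. Below them came *Cacna1d* at 2.13, *Cacnb2* at 1.46, *Slc17a8* at 1.31 and *Rims2* at 1.14 RPKM, with ranges that overlapped between each gene and the next. These levels are averages over a tissue in which IHCs are few, so they do not rank the genes within an IHC. Alternative transcripts shorter than the joined exons lower the RPKM of a gene.

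**Figure D4:**
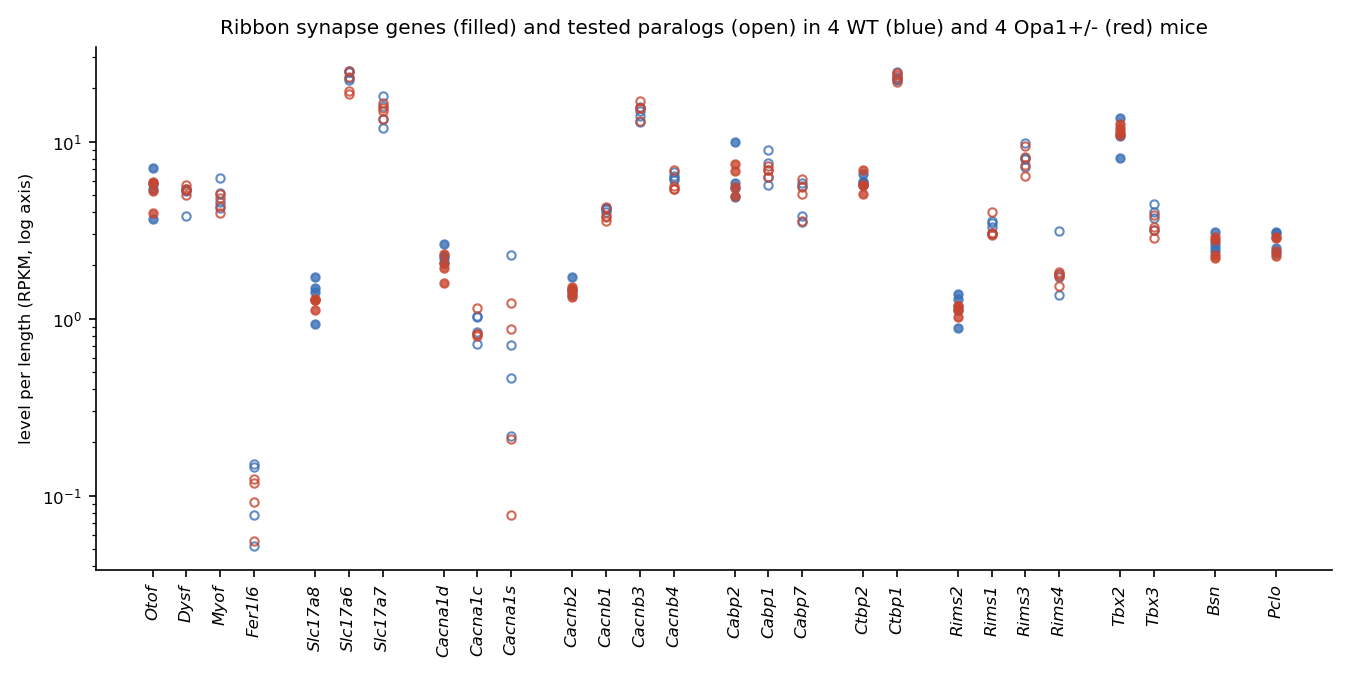
Level per length (y axis, RPKM, log axis) of the 10 ribbon synapse genes (filled) and their tested paralogs (open) in each of 4 WT (blue) and 4 Opa1+/- (red) cochleae. In RPKM Slc17a8 and Cacnb2 lie far below Slc17a6 and Cacnb3, and the genotypes overlap in every column. The joined exons by which Cacnb2 is divided are longer than those of Cacnb3.

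Most of the 10 genes belong to families whose other members are used by neurons, muscle or many cell types. Of 24 paralogs listed, 17 had enough counts, and 0 of these 17 passed an adjusted p of 0.05 in edgeR or DESeq2, or an unadjusted p of 0.05 in either, with 13 log2 fold changes below 0. The median log2 fold change of these 17 was -0.07, like that of the ribbon synapse genes. The other 7 were *Fer1l4*, *Fer1l5*, *Cacna1f*, *Cabp4*, *Cabp5*, *Tbx4* and *Tbx5*. *Cacna1f* and *Cabp4* serve the ribbon synapse of photoreceptors, and their levels here, 0.0119 and 0.0195 RPKM in WT, were below the count minimum.

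Glutamate transporters of vesicles were mostly those of neurons. *Slc17a6* averaged 22.6 RPKM over the 8 mice, 17.3 times *Slc17a8*, and *Slc17a7* had 14.9 ± 2.71 RPKM in WT (SD, n = 4). *Slc17a8* made up 3.46 ± 0.767% of the family's summed RPKM in WT and 3.29 ± 0.327% in *Opa1*+/- mice (SD, n = 4 each). The log2 fold changes of *Slc17a6* and *Slc17a7* were -0.14 and 0.02, with adjusted p of 0.808 and 0.979 in edgeR.

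The calcium channel families had opposite patterns. *Cacna1d* held 56.8 ± 7.23% of the L-type pore RPKM in WT and 58.3 ± 8.12% in *Opa1*+/- mice (SD, n = 4 each), and it was above *Cacna1c*, the pore of heart and brain, in each mouse. *Cacna1s*, the pore of skeletal muscle, had 14.9 CPM in WT mouse 6 and 1.42 to 4.65 CPM in the other WT mice, and 1.36, 7.97, 5.69 and 0.511 CPM in *Opa1*+/- mice 2, 7, A and B. Its log2 fold change was -0.60, with a 95% interval from -2.46 to 1.26. Among the beta subunits *Cacnb2* held only 5.68 ± 0.627% and 5.45 ± 0.669%, and *Cacnb3* was 10.1 times higher in RPKM. Part of that ratio comes from length, as *Cacnb2* has 13228 joined exon bases and *Cacnb3* 4010. In CPM, which is not divided by length, the WT means were 19.7 for *Cacnb2* and 57.4 for *Cacnb3*. *Cabp2* and *Cabp1*, a calcium-binding protein of neurons, were near each other at 6.34 and 6.99 RPKM, with *Cabp1* higher in 6 of 8 mice.

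In the remaining families, *Otof* had a mean of 5.47 RPKM and *Dysf*, a membrane repair protein of muscle, 4.93 RPKM in WT. The means were 5.23 and 5.35 RPKM in *Opa1*+/- mice. Single mice of both genotypes went either way. *Otof* was below *Dysf* in WT mouse 4 and *Opa1*+/- mouse A, and above it in WT mouse 6 and *Opa1*+/- mouse 2. *Ctbp1* was 3.93 times higher than *Ctbp2* by mean. *Rims3* was 7.03 times higher than *Rims2*, and *Rims2* held 8.13 ± 2.27% of its family in WT and 8.11 ± 0.855% in *Opa1*+/- mice (SD, n = 4 each). *Tbx2* had 73.1 ± 5.41% of its family in WT and 77.5 ± 2.35% in *Opa1*+/- mice, with *Tbx3* supplying most of the rest. The log2 fold change of *Tbx3* was -0.22 with an adjusted p of 0.765. Of the paralogs not yet given, *Myof*, *Fer1l6*, *Cacnb1*, *Cacnb4*, *Rims1* and *Rims4* had log2 fold changes of -0.14, -0.14, -0.10, -0.13, -0.02 and -0.22, and *Cabp7* and *Dysf* each had 0.12. *Cacna1c*, *Cacnb3*, *Cabp1*, *Ctbp1* and *Rims3* had -0.01, 0.09, -0.05, -9.00e-04 and -0.07. In no family did the shares of the genotypes differ by more than the larger SD.

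A list of 33 further genes of the presynapse was examined beside these 10, among them scaffold, priming, fusion and endocytosis proteins. All 33 were tested, 0 passed an adjusted or an unadjusted p of 0.05 in edgeR or DESeq2, and their median log2 fold change was -0.03, with 20 below 0 and 13 above. The values went from -0.17 to 0.12. The most abundant were *Snap25*, a fusion protein of nerve terminals, with 1222 ± 134.7 CPM in WT and 1113.7 ± 120.2 CPM in *Opa1*+/- (SD, n = 4 each), *Dnm1*, which cuts endocytic vesicles free, with 329.6 ± 45.6 and 334.1 ± 34.6 CPM, and *Ap2m1*, of the clathrin adaptor, with 321.3 ± 7.003 and 320.9 ± 11.02 CPM. The groups did not overlap for 1 of the 33, *Erc1*, an active zone scaffold of many cell types, named here after its values were seen, beside 4.31% of all genes tested. It had 41.0 to 41.9 CPM in WT mice and 42.2 to 48.6 CPM in *Opa1*+/-, a log2 fold change of 0.12, and an adjusted p of 0.742.

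Hair cell markers were read in the same way, since the level of a gene made in hair cells can depend on how many a sample holds. Whether the ribbon synapse genes followed the number of hair cells was not tested. None of the 15 genes of inner and outer hair cells passed the test or an unadjusted p of 0.05, in edgeR or DESeq2, and their median log2 fold change was -0.02. *Myo6*, a motor protein of hair cells and other cells, had 135.6 ± 18.2 CPM in WT mice and 122.8 ± 7.09 CPM in *Opa1*+/-, *Xirp2* had 33.4 ± 32.5 and 20.9 ± 17.1 CPM, and *Cib2*, of the transduction channel, 30.2 ± 2.04 and 36.0 ± 6.73 CPM (SD, n = 4 each). Of 5 other genes enriched in IHCs 4 were tested, none was called, and the highest were *Slc7a14*, *Shtn1* and *Atp2a3*, with log2 fold changes of -0.20, -0.06 and -0.10. *Fgf8*, an early IHC factor, had 0 counts in all mice but WT mouse 8.

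Of 7 outer hair cell genes 0 passed the adjusted threshold in edgeR or DESeq2, and 1, *Ikzf2*, had an unadjusted edgeR p under 0.05, beside 6.72% of all genes tested. *Ocm*, a calcium buffer, had 21.1 ± 4.51 CPM in WT and 24.4 ± 8.77 CPM in *Opa1*+/-, and *Ikzf2*, a transcription factor that sets outer hair cell identity, had 10.8 ± 0.806 and 8.43 ± 0.412 CPM (SD, n = 4 each). *Ikzf2* was also the 1 gene of the list that did not overlap between groups (4.31% of all genes tested), with 9.70 to 11.6 CPM in WT and 8.17 to 9.04 CPM in *Opa1*+/-, and had a log2 fold change of -0.35 (SE 0.09). Its adjusted p was 0.722, so it was not called.

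Of 16 SGN genes none was called, and their median log2 fold change was 0.02. *Nefh*, *Snap25* and *Nefl*, the highest, had log2 fold changes of -0.06, -0.13 and -0.01. *Snap25* is also among the 33 presynaptic genes. Inhibitory neurons of the brain were at the floor, their 4 genes summing to 2.23 to 4.72 CPM, and 4 genes of vestibular otoconia summed to 10.8 to 21.03 CPM. The 5 genes of central glia, some also made by cochlear glia and supporting cells, summed to 260.7 to 539.4 CPM. The highest genes of these lists were *Gad1* with a log2 fold change of 0.03, *Otop1* and *Otol1* with 0.08 and -0.01, and *Gfap*, *Aqp4* and *Slc1a2* with 0.03, -0.16 and -0.07. *Zpld1*, of the otoconia list, had 1.33 ± 1.49 CPM in WT and 0.555 ± 0.335 CPM in *Opa1*+/- (SD, n = 4 each). *Gad2* and *Slc6a5* were below the count minimum. In none of these lists, nor among the 5 fibrocyte, 6 erythroid and 7 neutrophil genes, was a gene called by edgeR or DESeq2, or below an unadjusted p of 0.05 in either. The 6 erythroid genes all had log2 fold changes above 0, with a median of 0.58, and the highest of them, *Hba-a1*, *Hba-a2* and *Hbb-bs*, had adjusted p of 0.766, 0.765 and 0.763. Of fibrocyte genes *Coch*, *Car3* and *Otos* were highest, with log2 fold changes of -0.20, 0.17 and 0.23, and of neutrophil genes *S100a9*, *Ngp* and *S100a8*, with 0.00, -0.02 and 0.03.

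**Figure D5:**
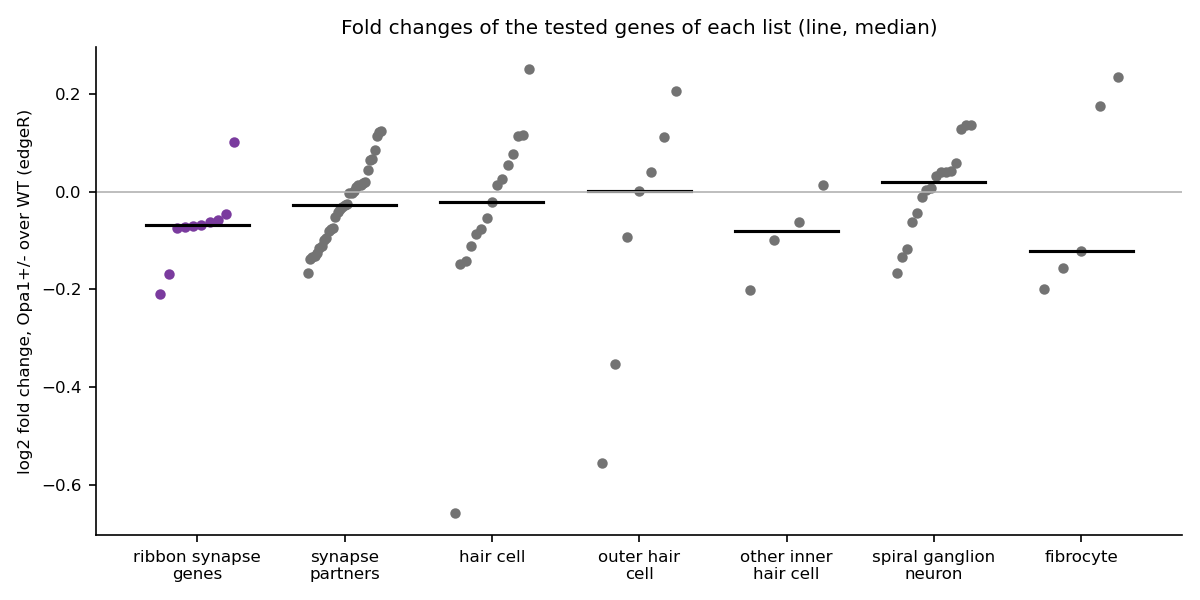
Log2 fold change, Opa1+/- over WT (y axis, edgeR), of each tested gene in 7 lists, with the median of each list as a line. The 10 ribbon synapse genes (purple) have a median of -0.07, the 33 synapse partners -0.03 and the 15 hair cell genes -0.02. The medians of the other inner hair cell and fibrocyte lists are lower, -0.08 and -0.12. Those of the outer hair cell and SGN lists are 7.96e-04 and 0.02. No gene shown passed an adjusted p of 0.05.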

How the data were processed

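Cochlear RNA of 4 WT and 4 *Opa1*+/- mice was measured by RNA seq. The authors prepared CORALL libraries, sequenced paired reads of 80 nucleotides, used molecular identifiers against amplification bias and mapped the reads to GRCm38 with STAR. They deposited raw counts per gene symbol for each mouse. The methods name the CORALL Data Analysis Pipeline for the raw data. Its counting program, annotation and use of strand are not given in the sources used here. The labels name TRI Reagent or an RNeasy kit for RNA extraction, without saying which mouse had which.

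Of the entries, 15 carried a number in place of a symbol (0.112% to 0.124% of counts) and were left out, and 47628 remained. The 19366 genes whose mean count, divided by DESeq2 size factors, exceeded 10 were kept. They were fitted with the non-robust quasi-likelihood model of edgeR 4.0.16, TMM factors being taken from these genes, and p-values were adjusted over all of them after Benjamini-Hochberg (threshold 0.05). CPM used the same factors, RPKM the joined exons of GENCODE vM21, and log2 CPM a prior count of 2. No pair of mice of 1 genotype agreed within sampling noise (chi-square per degree of freedom from 6.54 to 28.1). Each mouse is a separate animal. The test was tested on simulated data. Intervals of counting error cover counting only.

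The 10 genes and all lists were chosen with earlier results of these data known. Named were the 10 genes, their tested paralogs, *Opa1*, the called or else the 3 most abundant genes of each other list, and the 10 genes most like *Otof*. Other genes named serve as checks or are said to lie outside this rule. Of the genes this rule names, 1 is not reported here. Alternatives were DESeq2 1.42.0, limma 3.58.1 voom, other scalings, filters and thresholds, and mice left out. Sequences came from the GRCm38 genome with GENCODE vM21. Scripts ran under Python 3.11.15 with matplotlib 3.10.9 and under R 4.3.3.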

Additional observations from a re-analysis of the deposited data

Results flagged for a closer look

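In 3 of 36 groups of 4 mice, a single mouse was set apart from the other 3 by Dixon's gap ratio at its 95% critical value. Chance alone gives about 1 such group in 20. *Slc17a8* had 5.26 CPM in *Opa1*+/- mouse 2 and 6.003 to 6.06 CPM in the other *Opa1*+/- mice, a gap of 0.925 of the group's range, in a gene with 89 to 120 counts per mouse in that group. The coefficient of variation of that group, 6.57%, was below the 9.64% that counting alone gives, so this flag shows no spread beyond counting error. The summed fibrocyte genes had 3424 CPM in WT mouse 4 and 4459 to 4662 CPM in the other WT mice (ratio 0.835). The summed neutrophil and marrow genes had 1304 CPM in WT mouse 4 and 398.1 to 486.4 CPM in the other WT mice (ratio 0.903).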

How the results depend on the processing

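No ribbon synapse gene passed the test under any of 21 alternatives, 19 planned and 2 chosen after seeing the data. The lowest adjusted p of any of the 10 was 0.453, for *Slc17a8* without WT mouse 4. Their median log2 fold change stayed below 0 in every alternative, from -0.10 to -0.05 with 1 mouse left out and from -0.10 to -0.01 otherwise. Single fold changes are small beside their errors, and 18 of 200 changed sign, none past the threshold. Scaling to the hair cell list turned *Otof* to 0.051, *Cabp2* to 0.049, *Cacnb2* to 0.0022 and *Ctbp2* to 0.034, and shifted the median of all genes to 0.07. That scaling without *Xirp2*, an added choice, gave 0.0099 for *Otof* and 0.0023 for *Ctbp2*. *Otof* was 0.10 without both *Opa1*+/- mice that have 3-digit numbers, and *Cabp2* was 0.086 with voom weights and 0.25 without WT mice 4 and 6, the other added choice. The cause of these turns was not tested beyond the mice or scaling named.

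With 1 mouse left out, the log2 fold change went from -0.21 to 0.085 for *Otof*, -0.32 to -0.05 for *Slc17a8*, -0.30 to -0.12 for *Cacna1d*, -0.11 to 0.0037 for *Cacnb2*, -0.20 to 0.20 for *Cabp2*, -0.13 to 0.013 for *Ctbp2*, -0.14 to 0.0090 for *Bsn*, -0.14 to -0.0035 for *Pclo*, -0.17 to 0.032 for *Rims2* and -0.013 to 0.23 for *Tbx2*. The sign turned without WT mouse 4 for *Bsn*, *Rims2* and *Tbx2*, without WT mouse 6 for *Otof* and *Cabp2*, without WT mouse 8 for *Cacnb2*, without *Opa1*+/- mouse A for *Otof* (0.06) and *Cabp2* (0.02), and without mouse B for *Ctbp2*. Over all genes, edgeR called 5, DESeq2 25, voom 10, the robust fit 10, no filter 12, a threshold of 0.1 11, and fits without 1 mouse from 0 to 9. Without *Opa1*+/- mouse 2, *Opa1* itself had an adjusted p of 0.0704, without both 3-digit mice 0.26, and under hair cell scaling 0.396, or 0.106 without *Xirp2*, so the test has little reach in these settings. No paired analysis was possible because the labels give no litter or other shared number that would pair the genotypes. Depth limits *Slc17a8* and *Cabp2* most, at 77 and 107 counts in their lowest mice.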
